A study of Mus musculus with 6 samples.

Results

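The accessory subunits of the SET1/MLL complexes are the proteins that give each of these histone methyltransferase complexes its identity, beyond the catalytic subunit and the core shared by all of them. The set followed here has 8 genes, taken by exact symbol, of 38926 gene symbols in the files: Men1, Psip1, Hcfc1, Cxxc1, Wdr82, Kdm6a, Paxip1 and Ncoa6. All 8 were found and all 8 passed the filter on low counts, which left 13646 genes to test. RNA was sequenced from hematopoietic stem cells (HSCs) that had been purified by flow cytometry from mouse fetal liver, which makes most blood at that stage, at E14.5 (embryonic day). The 3 control samples were Vav-Cre; Dpy30F/+ and the 3 knockout samples were Vav-Cre; Dpy30F/-, and each of 3 litters gave 1 sample of each genotype. Both groups carried Vav-Cre, a Cre recombinase driven by the Vav promoter in blood cells and so not limited to HSCs, and both carried a floxed Dpy30 allele. The controls were therefore heterozygous wherever Cre had acted, not intact. The labels do not say how many embryos gave each sample.

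SET1/MLL complexes place methyl groups on lysine 4 of histone H3, a mark of active promoters and enhancers. A common core of Wdr5, Rbbp5, Ash2l and Dpy30 supports a catalytic subunit from the KMT2 or SETD1 family. Menin, the product of Men1, and LEDGF, the product of Psip1, join the KMT2A and KMT2B complexes and tether them to chromatin. The product of Hcfc1 is found in KMT2A, KMT2B, SETD1A and SETD1B complexes, whereas those of Cxxc1 and Wdr82 mark the SETD1A and SETD1B complexes. Kdm6a, Paxip1 and Ncoa6 encode subunits of the KMT2C and KMT2D complexes, which act mainly at enhancers. In blood-forming cells the KMT2A complex is best known for sustaining Hox genes and Meis1.

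Trimethylated lysine 4 is found mainly at promoters, and the Cxxc1 protein binds unmethylated CpG dinucleotides there. RefSeq windows (GRCm38.p6) were examined for 6 of the 8 members, Men1, Hcfc1, Wdr82, Kdm6a, Paxip1 and Ncoa6. No window was examined for Psip1 or Cxxc1. The 3 sequences below are the 250 bases before a start of the member with the lowest scaled count (Men1), the member with the highest (Hcfc1) and the member with the largest difference between genotypes (Kdm6a). They run 5′ to 3′ on the strand of the gene, at chr19:6334729-6334978 (plus strand), chrX:73966358-73966607 (minus strand) and chrX:18162325-18162574 (plus strand), none of them overlaps an annotated exon, and capitals mark CpG dinucleotides.
Men1: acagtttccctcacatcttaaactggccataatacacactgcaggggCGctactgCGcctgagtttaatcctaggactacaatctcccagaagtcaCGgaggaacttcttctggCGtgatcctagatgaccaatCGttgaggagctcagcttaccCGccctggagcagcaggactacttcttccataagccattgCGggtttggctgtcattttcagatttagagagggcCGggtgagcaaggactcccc
Hcfc1: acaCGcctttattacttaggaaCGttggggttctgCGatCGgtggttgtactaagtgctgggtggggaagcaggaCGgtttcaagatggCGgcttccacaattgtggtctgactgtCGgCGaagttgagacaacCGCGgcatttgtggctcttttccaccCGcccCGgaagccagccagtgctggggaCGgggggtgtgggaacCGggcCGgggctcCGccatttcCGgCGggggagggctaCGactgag
Kdm6a: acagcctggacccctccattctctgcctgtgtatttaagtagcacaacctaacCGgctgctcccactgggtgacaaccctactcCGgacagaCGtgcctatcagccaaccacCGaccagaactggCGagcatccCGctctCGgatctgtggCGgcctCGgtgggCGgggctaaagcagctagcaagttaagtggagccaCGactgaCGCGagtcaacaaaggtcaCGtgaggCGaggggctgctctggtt

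The Men1 window holds 8 CpGs, the Hcfc1 window 19 and the Kdm6a window 15. Over all 32851 RefSeq windows of the same length the median was 6 CpGs, with quartiles of 2 and 16. The windows of Wdr82 and Paxip1 hold 24 and 22 CpGs. The Ncoa6 window, which lies at a start inside the annotated gene, holds 1. Short motifs were searched on both strands. The GC box GGGCGG is in the windows of Men1, Hcfc1, Wdr82, Kdm6a and Paxip1, and in 32.7% of all windows. CCAAT occurs only in Men1 among these members (33.9% of all windows), the ETS core CCGGAAG and the YY1 core AAGATGG only in Hcfc1 (6.91% and 4.49%), the NRF1 core GCGCATGC only in Paxip1 (2.26%), and TATAAA only in Ncoa6 (12.4%). These are matches of letters, and no binding was measured.

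Counts assigned to genes ranged from 31.9 to 43.4 in units of 1000000 per sample. Values are given as CPM, counts divided by the scaled library size and multiplied by 1000000, where the scaling factors, from the trimmed mean of M values (TMM), ran from 0.747 in control 1 to 1.25 in knockout 1. Dpy30 had 24.6, 24.2 and 31.6 CPM in controls 1 to 3 and 7.93, 5.95 and 13.7 CPM in knockouts 1 to 3, so every knockout lay below every control (edgeR log2 fold change -1.55, SE 0.464, adjusted p = 0.672). The genotypes separated in this direction in 7.74% of all tested genes. The 13 listed HSC markers summed to 1050 to 1135 CPM in controls and to 678 to 1389 CPM in knockouts. All 3 knockouts departed from the controls, and knockout 3 did so downwards. It had 8 of the 13 markers below every control and 2 (Gata2 and Runx1) above every control. Knockout 1 had 3 below and 6 above, and knockout 2 had 2 below and 9 above. Knockout 3 had the lowest level of Hlf (27.2 CPM against 146 to 230 in the other 5 samples), Mecom (11.6 against 70.2 to 147) and Slamf1 (0.514 against 6.59 to 15.7). Ly6a, which encodes the HSC surface marker Sca-1, was at 0 counts in control 3 and at most 7.44 CPM elsewhere. Of 7 macrophage markers present in the files, 4 (Csf1r, C1qb, Lyz2 and Cd68) were higher in every knockout than in any control, as were 6.39% of all tested genes. Their list summed to 261 to 530 CPM in controls and to 692, 306 and 1371 CPM in knockouts 1 to 3, and none of the 7 was at 0 in any sample. Mrc1 was 26.4 CPM in knockout 2; without Mrc1 the sums were 81.7 to 171 CPM in controls and 383, 279 and 1004 CPM in knockouts 1 to 3. Csf1r, C1qb and Lyz2 passed in DESeq2 (adjusted p = 0.00759, 0.00214 and 0.00772) and not in edgeR. The 7 erythroid markers had a median log2 fold change of -0.51, with 3 positive and 4 negative, and in none did the genotypes separate. Slc4a1 fell most, from a mean of 414 CPM to 191 CPM (edgeR adjusted p = 0.759). All 3 tested hepatocyte markers were negative. Of them Afp was below every control in every knockout (edgeR adjusted p = 0.759), as were 7.74% of all tested genes. The part of these shifts in the values of the accessory subunits was not tested, so values without knockout 3 are given for each member where they differ. In such bulk samples fewer cells of a type and less RNA per cell cannot be told apart.

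No accessory subunit had an RNA level that differed detectably between the genotypes. At a threshold of 0.05 on the adjusted p of edgeR's quasi-likelihood test, 0 of the 8 passed, as did 0% of all 13646 genes. Nor did any member reach an unadjusted p under 0.05, which 6.51% of all tested genes (888 genes) did. In DESeq2 no member passed, beside 1.03% of genes. In no member did the genotypes separate. Across all tested genes, every knockout lay above every control in 6.39% and below in 7.74%. Among the 3277 tested genes whose mean level lay in the members' range of 31.5 to 342 CPM, 10.7% had an unadjusted p under 0.05 and 17.2% separated the genotypes in either direction. The log2 fold changes of the members, knockout over control, ran from -0.39 (Wdr82) to 0.56 (Kdm6a), with 4 positive and 4 negative and a median of 0.06, beside a median of 0.01 over all tested genes. The size of the difference had a median of 0.24 on the log2 scale over the members, 0.52 over all tested genes and 0.30 over the 3277 genes of like level.

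**Figure D1:**
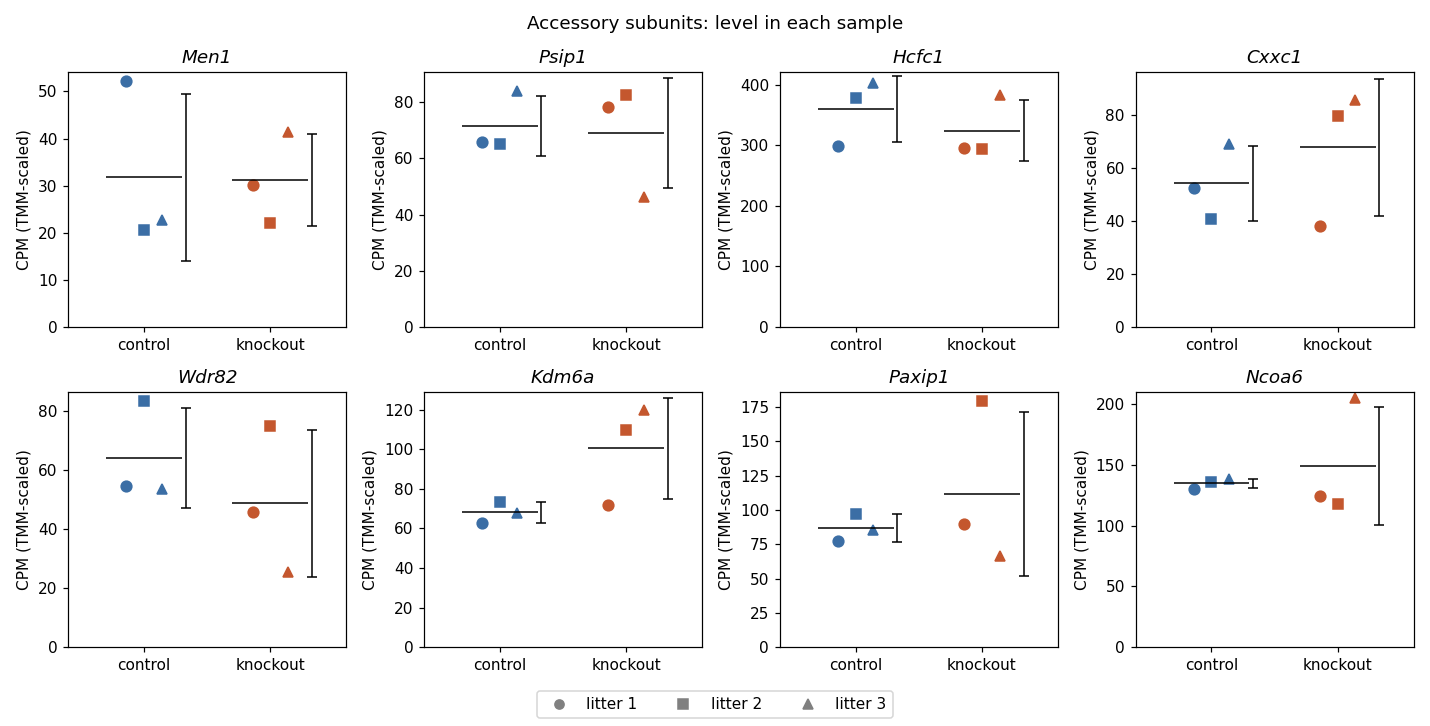
Level of each accessory subunit (TMM-scaled CPM, axis from 0) in 3 control and 3 knockout samples. Each marker is 1 sample with its shape giving the litter, the horizontal line is the mean and the bar is the SD; the groups overlap in all 8 panels, and Kdm6a comes nearest to separating.

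The 95% intervals of the differences bound what could have gone unseen. For Psip1, Hcfc1 and Ncoa6 the interval lay wholly between a halving and a doubling. For Cxxc1, Kdm6a and Paxip1 a doubling lay inside the interval but a halving did not. For Wdr82 a halving lay inside but a doubling did not, and for Men1 the interval, -1.09 to 1.03 on the log2 scale, held both. The widths follow the spread between samples: the standard errors ran from 0.212 (Hcfc1) to 0.461 (Men1).

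**Figure D2:**
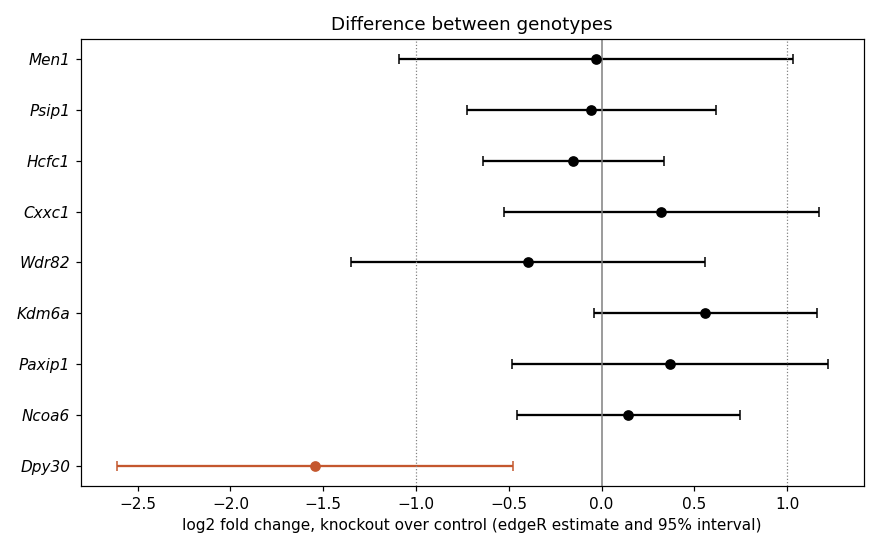
Log2 fold change of knockout over control for the 8 accessory subunits (black) and Dpy30 (orange), with 95% intervals from edgeR; dotted lines mark a halving and a doubling. The intervals of all 8 members cross 0 and that of Dpy30, -2.61 to -0.48, does not.

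Menin is the scaffold through which KMT2A and KMT2B bind LEDGF and several transcription factors. Men1 (ENSMUSG00000024947.17, GRCm38 chromosome 19, 6334979 to 6340891, plus strand) had the lowest CPM of the set, a measure that does not account for gene length. It had 52.2, 20.5 and 22.7 CPM in controls 1 to 3 and 30.2, 22.0 and 41.3 CPM in knockouts 1 to 3. Control 1 was the highest of the 6 samples and control 2 the lowest, so the knockouts fell inside the control range. Controls averaged 31.8 ± 17.7 CPM and knockouts 31.2 ± 9.69 CPM (SD, n = 3 each), with a log2 fold change of -0.03 (SE 0.461; edgeR adjusted p = 0.994). Its sign was not stable and turned in 6 of 16 alternatives: the log2 fold change was 0.53 without control 1 and 0.17 without knockout 2, and it was -0.27 without knockout 3.

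LEDGF reads methylated lysine 36 of histone H3 through its PWWP domain and holds menin on chromatin. Psip1 (ENSMUSG00000028484.16, chromosome 4, 83455680 to 83486459, minus strand) had 66.0, 65.0 and 83.9 CPM in controls 1 to 3 and 78.1, 82.5 and 46.4 CPM in knockouts 1 to 3. Knockouts 1 and 2 lay within the control range and knockout 3 below it. The means were 71.6 ± 10.6 and 69.0 ± 19.7 CPM (SD, n = 3 each), with a log2 fold change of -0.05 (SE 0.291; edgeR adjusted p = 0.990), or 0.18 without knockout 3. Exons of Snapc3 on the opposite strand cover 9.50% of the exonic bases of Psip1, and whether reads were counted by strand is not given in the sources used here. None of the other 7 members shares exonic bases with another annotated gene.

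Hcfc1 encodes a large host cell factor that links transcription factors to SET1/MLL complexes. The gene (ENSMUSG00000031386.14, chromosome X, 73942792 to 73966357, minus strand) was the most abundant member, per length as well, and the one with the narrowest relative range over all 6 samples. It had 299, 379 and 403 CPM in controls 1 to 3 and 295, 295 and 383 CPM in knockouts 1 to 3, a highest-to-lowest ratio of 1.37. Knockouts 1 and 2 were just below the lowest control, and knockout 3 lay among the controls. The means were 360 ± 54.3 and 324 ± 50.7 CPM (SD, n = 3 each), with a log2 fold change of -0.15 (SE 0.212; edgeR adjusted p = 0.936). It was lower in the knockout of all 3 litters, by log2 ratios of -0.02, -0.36 and -0.07, a pattern that 15.9% of all tested genes showed. Without knockout 3 the log2 fold change was -0.28 and both remaining knockouts lay below every control, as they did for 12.5% of all genes tested in that setting.

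Cxxc1 encodes CFP1, which brings the SETD1 methyltransferases to unmethylated CpG islands. Cxxc1 (ENSMUSG00000024560.7, chromosome 18, 74216124 to 74221496, plus strand) had 52.4, 40.8 and 69.1 CPM in controls 1 to 3 and 38.2, 79.4 and 85.5 CPM in knockouts 1 to 3. Knockout 1 was the lowest of the 6 samples, whereas knockouts 2 and 3 were the 2 highest. The means were 54.1 ± 14.3 and 67.7 ± 25.7 CPM (SD, n = 3 each; log2 fold change 0.32, SE 0.368, edgeR adjusted p = 0.921). Leaving out knockout 3 took the log2 fold change to 0.13 and leaving out knockout 1 took it to 0.61.

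Wdr82 encodes a WD-repeat protein that binds the SETD1 subunits and the tail of RNA polymerase II, and it also works with Ppp1r10 and Tox4 in a phosphatase complex. Wdr82 (ENSMUSG00000020257.13, chromosome 9, 106170928 to 106191139, plus strand) had 54.7, 83.3 and 53.6 CPM in controls 1 to 3 and 45.8, 74.7 and 25.3 CPM in knockouts 1 to 3. Litter 2 gave the highest sample of each genotype, and knockout 3 was the lowest of all. The means were 63.9 ± 16.9 and 48.6 ± 24.8 CPM (SD, n = 3 each; log2 fold change -0.39, SE 0.415, edgeR adjusted p = 0.908). All 3 litters had less in the knockout, by log2 ratios of -0.25, -0.16 and -1.08. The size moved with single libraries: the log2 fold change was -0.07 without knockout 3, -0.15 without control 2 and -0.84 without knockout 2.

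The 2 SETD1-specific subunits did not keep a fixed proportion. A ratio of counts within a sample is free of the library scaling, and the Wdr82 to Cxxc1 ratio ran 1.04, 2.04 and 0.775 across the controls and 1.20, 0.940 and 0.296 across the knockouts. The range within controls alone covered all knockouts but knockout 3, which had both the least Wdr82 and the most Cxxc1. In the KMT2A/KMT2B pair, the ratio of Psip1 to Men1 counts was likewise spread within each genotype, from 1.26 to 3.69 in controls and from 1.12 to 3.74 in knockouts.

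Kdm6a encodes UTX, the subunit of KMT2C and KMT2D complexes that removes methyl groups from lysine 27 of histone H3. Kdm6a (ENSMUSG00000037369.17, chromosome X, 18162575 to 18279936, plus strand) had 62.8, 73.6 and 68.0 CPM in controls 1 to 3 and 71.8, 110 and 120 CPM in knockouts 1 to 3. Knockouts 2 and 3 were above every control, and knockout 1 fell between controls 2 and 3. The means were 68.1 ± 5.41 and 100 ± 25.4 CPM (SD, n = 3 each). This was the largest difference in the set, with a log2 fold change of 0.56 (SE 0.261, 95% interval -0.04 to 1.16; unadjusted p = 0.0639, edgeR adjusted p = 0.775), and it did not pass the test. Kdm6a was higher in the knockout of all 3 litters, by log2 ratios of 0.19, 0.57 and 0.82, which 12.3% of all tested genes were. With litter as a block, the pairing given by the labels, the estimate became 0.53 (edgeR adjusted p = 0.953), and without knockout 3 it was 0.42. Leaving out knockout 1 raised it to 0.75 (unadjusted p = 0.0143, under 0.05 in 12.5% of genes there) and put every remaining knockout above every control, as in 12.4% of all genes tested in that setting. Leaving out control 2 (log2 fold change 0.62) also separated them, as in 9.35% of all genes there.

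Paxip1 encodes PTIP, a BRCT-domain protein with a further role in the DNA damage response. Paxip1 (ENSMUSG00000002221.11, chromosome 5, 27740080 to 27791691, minus strand) had 77.2, 97.4 and 85.3 CPM in controls 1 to 3 and 89.6, 180 and 66.5 CPM in knockouts 1 to 3. Knockout 2 was far above every control and nearly double the highest, knockout 3 was the lowest of the 6 samples and knockout 1 lay among the controls. The means were 86.7 ± 10.1 and 112 ± 59.8 CPM (SD, n = 3 each; log2 fold change 0.37, SE 0.369, edgeR adjusted p = 0.905). Without knockout 2 the log2 fold change was -0.15, and without knockout 3 it was 0.65.

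Ncoa6 encodes a nuclear receptor coactivator that couples KMT2C and KMT2D to hormone-responsive genes. Ncoa6 (ENSMUSG00000038369.14, chromosome 2, 155390656 to 155473894, minus strand) had 131, 136 and 138 CPM in controls 1 to 3 and 125, 118 and 205 CPM in knockouts 1 to 3. The controls agreed to within a coefficient of variation of 2.88%, the tightest of any member in either genotype. Knockouts 1 and 2 lay below all controls and knockout 3 above them. The means were 135 ± 3.88 and 149 ± 48.4 CPM (SD, n = 3 each; log2 fold change 0.14, SE 0.261, edgeR adjusted p = 0.960), and without knockout 3 the log2 fold change was -0.14.

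Proportions among the KMT2C/KMT2D subunits were steadier in controls than in knockouts. The spread of single genes was likewise the larger in knockouts for 76.7% of the 3277 genes of like level. The Kdm6a to Paxip1 count ratio came to 0.813, 0.756 and 0.797 across the controls and to 0.801, 0.610 and 1.81 across the knockouts. The ratio of Kdm6a to Ncoa6 was 0.481, 0.541 and 0.492 in controls and 0.576, 0.931 and 0.586 in knockouts, so every knockout was above every control in this 1 ratio, chosen after its values were seen. The ratio of Paxip1 to Ncoa6 ran from 0.592 to 0.716 in controls and was 0.719, 1.53 and 0.325 in knockouts 1 to 3. Of the 3 proportions, 2 therefore had knockouts on both sides of the control range, but the 3 share their genes and are not independent.

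**Figure D3:**
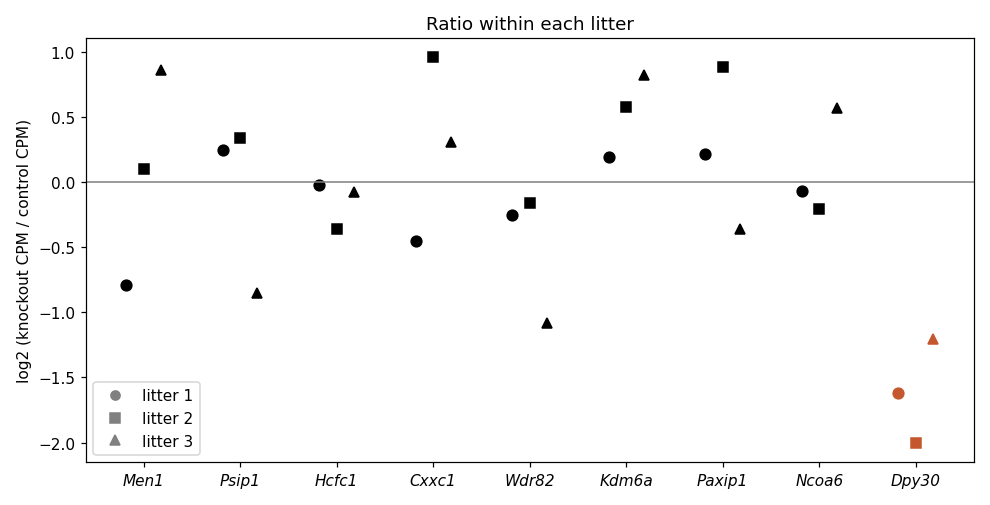
Log2 ratio of knockout to control CPM within each of 3 litters for the accessory subunits (black) and Dpy30 (orange), with 0.1 CPM added to both. Kdm6a is above 0 and Hcfc1 and Wdr82 are below 0 in all 3 litters; the other 5 members take both signs, and Dpy30 is between -2.00 and -1.21.

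The spread between samples was wider in knockouts than in controls for 7 of the 8 members, Men1 being the exception. The median coefficient of variation of the members was 14.9% in controls and 31.8% in knockouts. The same held widely in these libraries: the knockout coefficient of variation was the larger in 76.7% of the 3277 genes of like level, with medians of 16.9% and 30.4%. Knockout 3 gave the highest or the lowest value for 6 of the 8 members, being highest for Cxxc1, Kdm6a and Ncoa6 and lowest for Psip1, Wdr82 and Paxip1. Among genes of like level knockout 3 was the extreme sample in 58.0%, more often than any of the other 5 libraries (20.8% to 39.7%). Both counts for the members thus sit beside high shares in genes of like level.

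Levels can be compared between genes only per length, here as CPM per kilobase of annotated exons. In controls Hcfc1 stood far above the rest at 43.1 ± 6.49, followed by Psip1 (14.1 ± 2.09), Ncoa6 (13.8 ± 0.398), Cxxc1 (13.8 ± 3.63), Wdr82 (10.1 ± 2.66), Paxip1 (8.44 ± 0.988), Men1 (8.30 ± 4.62) and Kdm6a (8.13 ± 0.645; CPM per kilobase, SD, n = 3). Below Hcfc1, neighbours in this order differed by less than the sum of their SDs. The knockout means were 38.8 ± 6.06 for Hcfc1 and 17.2 ± 6.55 for Cxxc1, then 15.3 ± 4.97 for Ncoa6, 13.6 ± 3.88 for Psip1, 12.0 ± 3.03 for Kdm6a, 10.9 ± 5.83 for Paxip1, 8.13 ± 2.53 for Men1 and 7.66 ± 3.91 for Wdr82 (CPM per kilobase, SD, n = 3). Dpy30 itself stood at 23.4 ± 3.66 in controls, above every member but Hcfc1, and at 8.01 ± 3.49 in knockouts, above Wdr82 alone and close to Men1 (CPM per kilobase, SD, n = 3 each). Dividing by the longest transcript instead exchanged Ncoa6 with Cxxc1 and Men1 with Kdm6a in the control order, and put knockout Dpy30 (11.6) above Men1 (10.4) and below Wdr82. Counts per gene symbol do not tell RNA of a recombined Dpy30 allele from that of an intact one. The knockout value is therefore not a level of intact Dpy30 RNA.

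Kdm6a and Hcfc1 lie on the X chromosome, and Kdm6a is known to escape X inactivation, so its level can depend on the sex of the embryos. Every library held both Xist, the RNA of the inactive X of female cells (64.6 to 497 CPM), and Uty, the Y-linked paralogue of Kdm6a (4.23 to 30.7 CPM). Xist was 497, 488 and 182 CPM in controls 1 to 3 and 64.6, 126 and 163 CPM in knockouts 1 to 3. Every knockout lay below every control for Xist, as in 7.74% of all tested genes (edgeR log2 fold change -1.72, adjusted p = 0.629, and DESeq2 adjusted p = 0.0253). Uty was 13.7, 4.23 and 14.1 CPM in controls and 22.6, 10.5 and 30.7 CPM in knockouts, higher in the knockout of each litter though the groups overlap (edgeR log2 fold change 0.99, adjusted p = 0.844).

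The 3 other Y-linked genes on the list were higher in the knockout of litters 1 and 2 and lower in that of litter 3, where Eif2s3y went from 13.3 to 2.80 CPM, Kdm5d from 19.7 to 3.51 CPM and Ddx3y to 6.85 CPM, a log2 ratio of -1.85. X-linked genes that are known to escape inactivation were listed beside Kdm6a. Ddx3x, an RNA helicase gene, was lower in every knockout than in any control (520, 475 and 374 against 337, 357 and 334 CPM). The same was true of 7.74% of all tested genes (Ddx3x edgeR log2 fold change -0.41, adjusted p = 0.775). Eif2s3x had a log2 fold change of -0.35 and Kdm5c one of 0.11 (edgeR adjusted p = 0.963 and 0.969). The part of embryo sex in the Kdm6a difference was not tested.

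**Figure D4:**
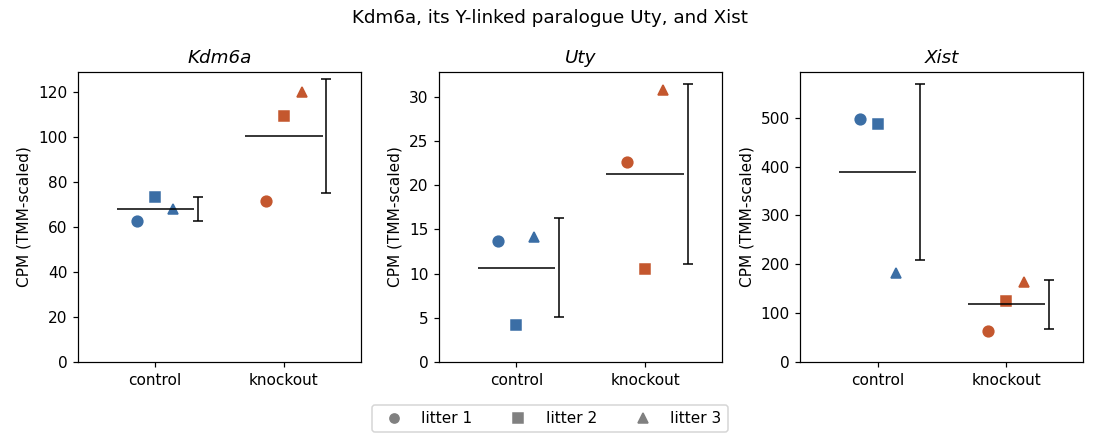
TMM-scaled CPM (axis from 0) of Kdm6a, its Y-linked paralogue Uty and the female-specific RNA Xist in each sample, with shapes for litters, lines for means and bars for SD. Kdm6a and Uty overlap between the genotypes, whereas every knockout is below every control for Xist, as in 7.74% of all tested genes.

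The remaining SET1/MLL genes gave the same picture. Of the 13 others on the list, the catalytic subunits, the core without Dpy30 and further accessory genes, none had an unadjusted p under 0.05 in edgeR and in none did the genotypes separate. Their median log2 fold change was 0.08, within a range from -0.84 (Pagr1a, below 2 CPM in every sample) to 0.75 (Bod1). Kmt2a, whose protein binds menin and LEDGF, had 233, 203 and 247 CPM in controls and 229, 283 and 281 CPM in knockouts (log2 fold change 0.21, edgeR adjusted p = 0.897). Kmt2c, the partner of Kdm6a, Paxip1 and Ncoa6, had a log2 fold change of 0.22, and Hcfc2, the paralogue of Hcfc1, one of 0.64 (edgeR adjusted p = 0.916 and 0.903).

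Partners of the members outside these complexes were followed as well, 15 of 17 listed genes being tested. No partner passed in edgeR after adjustment. A single one of the 15 was under 0.05 before it, beside 6.51% of all tested genes. That gene was Sin3a, the scaffold of a histone deacetylase complex that binds the Hcfc1 product, at 114, 97.1 and 89.8 CPM in controls and 119, 167 and 203 CPM in knockouts (log2 fold change 0.70, SE 0.255, edgeR adjusted p = 0.729). Every knockout was above every control for Sin3a, as in 6.39% of all tested genes. Cdca7l, whose protein binds LEDGF, went the other way, at 22.9, 30.1 and 24.4 CPM in controls and 12.8, 17.2 and 22.7 CPM in knockouts (log2 fold change -0.55, edgeR adjusted p = 0.863). Each knockout was below every control for Cdca7l, as in 7.74% of all tested genes. Zfp143, which encodes a zinc finger factor that shares promoters with the Hcfc1 product, had a log2 fold change of 0.64 (edgeR adjusted p = 0.879).

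Genes known to depend on menin and KMT2A did not pass the test either, 0 of 10 at an adjusted or an unadjusted p under 0.05 in edgeR, with 6 positive and 4 negative log2 fold changes and a median of 0.14. Hoxa7 had 11.7, 4.71 and 7.44 CPM in controls and 3.20, 3.03 and 0 CPM in knockouts (edgeR adjusted p = 0.869). Each knockout was below every control for Hoxa7, as in 7.74% of all tested genes. Hoxa10 was low, from 0.181 to 3.21 CPM in controls and from 0.0286 to 2.20 CPM in knockouts. Pbx3 had a log2 fold change of 0.77 (edgeR adjusted p = 0.866). Cdkn2c ran from 1.66 to 5.56 CPM in controls and was 2.16, 0.110 and 24.8 CPM in knockouts 1 to 3, so its log2 fold change of 1.39 came from knockout 3 (edgeR adjusted p = 0.913). Meis1 had 31.4, 32.6 and 47.9 CPM in controls and 60.6, 57.4 and 12.3 CPM in knockouts 1 to 3. Knockouts 1 and 2 thus lay above every control and knockout 3 below (log2 fold change 0.22, edgeR adjusted p = 0.969).

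The mean profile of the 8 members was nearly flat, though those of the single members were not. Centred on its own mean, it took values of -0.03, -0.05 and 0.00 in controls 1, 2 and 3 and of -0.15, 0.21 and 0.03 in the knockouts of litters 1, 2 and 3 on the log2 CPM scale. Among tested genes with a mean of at least 5 CPM, the profiles nearest to it over the 6 samples were those of Psmd11, a proteasome subunit gene, at a root mean square distance of 0.0567, and of Ubxn4 and Rtf1, at 0.0715 and 0.0716. The members themselves lay farther from that mean, from 0.233 (Hcfc1) to 0.544 (Wdr82), so it describes none of them closely. The nearest pair of members was Hcfc1 and Ncoa6, at a distance of 0.209, and the farthest was Men1 and Wdr82, at 0.952.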

How the data were processed

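Poly(A)-selected RNA of sorted HSCs was sequenced in 3 control and 3 knockout samples. The authors deposited raw counts per gene symbol for each sample, and the 5 closing tallies of unassigned reads in each file were left out; they made up 41.0% to 51.0% of all tallied reads. The submitters' processing notes name mm10, TopHat2, Picard 1.126, HTSeq 0.6.0, bedtools 2.17.0, CASAVA 1.8.4 and DESeq 3.0. The annotation, strandedness and read length are not given in the sources used here. Reads with more than 1 alignment were tallied apart, so any stretch shared by Kdm6a and Uty could lose counts, which was not checked.

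Genes were kept with filterByExpr, scaled by TMM and tested with edgeR 4.0.16 in R 4.3.3 (glmQLFit and glmQLFTest, genotype only, all 6 samples), with Benjamini-Hochberg adjustment over all 13646 genes and a threshold of 0.05. SE was derived from the F statistic and the log2 fold change, and 95% intervals use the t distribution with the moderated degrees of freedom. Log2 CPM used a prior count of 2. DESeq2 1.42.0, limma-voom (limma 3.58.1), a litter block, other scalings and filters, and leaving out each replicate were alternatives. The code was tested on simulated data with planted changes far larger than any seen in the members. That run does not show whether changes of the members' size could be found. The litter labels pair the samples; deviations from the genotype means correlated within litters at -0.02, -0.08 and 0.00. Litters are separate, so p-values reflect spread between litters. Exon lengths come from GENCODE M21 (GRCm38, as mm10) and promoters from RefSeq.

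The members and lists were chosen with earlier results of these data known. All members and Dpy30 are named, and from each other list genes past the threshold and up to 4 others in order of p, besides markers and X- and Y-linked genes used as checks. Meis1 was named in addition, outside this order. The 3 genes with profiles nearest to the members' mean were named by distance. Of the listed partners, Hdgfl2 was not matched by symbol and Ppp1ca did not pass the filter.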

Additional observations from a re-analysis of the deposited data

How the results depend on the processing

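The count of members past the threshold was 0 under all 16 alternatives run. Kdm6a, Cxxc1 and Wdr82 kept their sign in all 16, with log2 fold changes of 0.42 to 0.75, 0.13 to 0.61 and -0.84 to -0.07, as did Dpy30 (-1.94 to -1.31). With the litters as a replicate block, the median of the members was 0.08, beside -0.12 over all genes, and Men1 turned to 0.059. The genes called over the whole table were 0 in edgeR, 138 with DESeq2 (1260 at an unadjusted p under 0.05, against 888 in edgeR), 277 with DESeq2 and a replicate block (an alternative added after the data were seen, where Men1 was 0.076 and the medians of members and all genes were 0.10 and -0.11), and 1 both without a filter and with at least 10 counts in every sample.

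Scaling by library size alone moved the median of all genes from 0.01 to 0.23 and that of the members to 0.30, turned Men1, Psip1 and Hcfc1 to 0.27, 0.155 and 0.021, and left 1 member not overlapping, Kdm6a, where 9.29% of all genes lay above every control; Kdm6a there had an unadjusted p of 0.0383 in edgeR. Upper-quartile scaling moved the median of all genes to -0.10 and that of the members to -0.078, and limma-voom turned Men1 to 0.12, with medians of 0.10 for the members and -0.14 for all genes.

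Leaving out each replicate in turn gave a median of the members from 0.018 to 0.21 and 0 to 2 members not overlapping (Cxxc1 and Kdm6a higher without knockout 1, Kdm6a higher without control 2, Wdr82 lower without knockout 2, Hcfc1 and Ncoa6 lower without knockout 3). In these settings 21.0% to 30.6% of all genes separated, against 14.1% with all 6 samples. Signs turned for Men1 (-0.27 to 0.53), Psip1 (-0.20 to 0.18), Paxip1 (-0.15 to 0.65) and Ncoa6 (-0.14 to 0.29). The causes were not tested. By longest transcript, control levels per kilobase ranged from 10.6 (Men1) to 43.6 (Hcfc1). Counting depth does not limit the members, each with at least 767 counts per sample; the spread between samples does.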
